A study of Mus musculus with 9 samples.

Results

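The addition of LY500307 to PD-1 treatment was examined by setting the 3 libraries labelled LY500307+PD-1 against the 3 labelled PD-1, which are 6 of the 9 libraries in the series. The members were chosen by their labels alone, and the remaining 3 libraries, labelled control, are given for reference. All of the libraries carry the label of 4T1, a mouse mammary carcinoma cell line, and were made from total RNA depleted of ribosomal RNA. Replicates 2 and 3 of PD-1 carry PD-2 and PD-3 as their treatment label and were grouped by their titles. The labels give no dose, duration, route or antibody, and they do not say whether the cells were grown in a dish or taken from tumours. Both groups compared share the PD-1 treatment, so the comparison asks what LY500307 added to it. No library labelled with LY500307 alone was analysed here.

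LY500307 activates estrogen receptor beta, a nuclear receptor that binds DNA after it meets its ligand. PD-1 is an inhibitory receptor of T cells, and antibodies that block it release T cells from that inhibition. 4T1 tumours are known for a heavy infiltrate of suppressive myeloid cells, which macrophage colony-stimulating factor (Csf1) and related growth factors help to recruit.

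Expression was compared for 13521 genes, those at 1 FPKM or more in at least 3 of the 6 libraries. FPKM, which scales fragments by transcript length and library size, is a unit read from the values, because the table does not name it. At the edge of this filter, 476 genes reached 1 FPKM in exactly 3 libraries and 606 in exactly 2, and the latter were not tested. Positions were looked up by gene ID in GENCODE M21 (GRCm38), whereas the submitters' processing notes name mm9. Values are given in FPKM, as mean ± SD of 3 libraries unless each library is listed. A log2 fold change is the difference of log2(FPKM + 1), LY500307+PD-1 minus PD-1, which understates the change of low genes. Whether replicates are separate cultures or animals is not given, so the p-values reflect the spread among these libraries and part of it may be technical.

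With limma and Benjamini-Hochberg adjustment, 0 of the 13521 genes (0%) were called at the 0.05 level, the lowest adjusted value being 0.734. Without adjustment 444 genes (3.28%) lay under that level, 199 of them higher with LY500307 (1.47%) and 245 lower (1.81%). The groups did not overlap for 1017 genes (7.52%), 473 on the higher side (3.5%) and 544 on the lower side (4.02%). The median log2 fold change was 0.00, the interquartile range ran from -0.11 to 0.11, and 51% of the genes had a value above 0. Only 101 genes differed by more than 1 on the log2 scale, and 42 of these had groups that did not overlap. The median standard error was 0.16, and for 89.2% of the genes the 95% interval lay wholly within 1 log2 unit of 0. For the remaining genes the interval reached or passed 1 log2 unit in at least 1 direction.

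**Figure D1:**
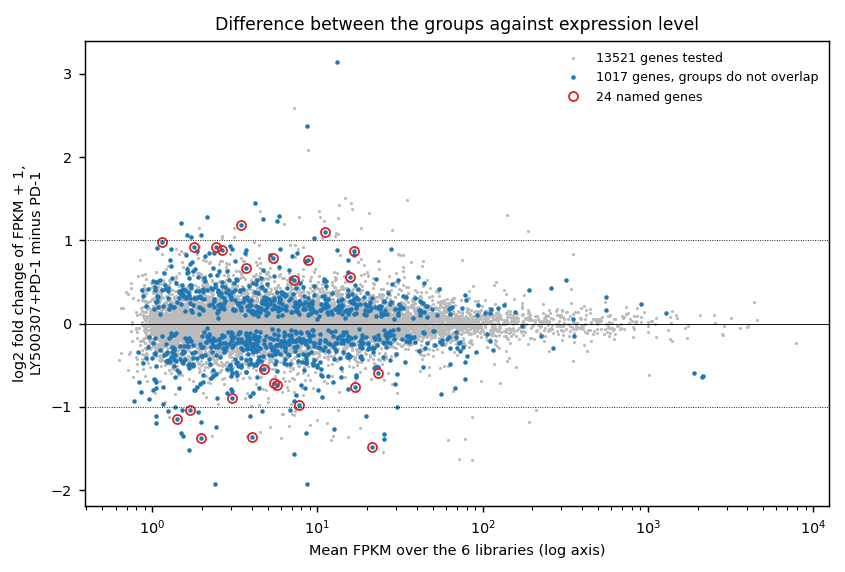
Log2 fold change of FPKM + 1 (LY500307+PD-1 minus PD-1, vertical axis) against the mean FPKM over the 6 libraries (horizontal log axis) for the 13521 genes tested. Blue points mark the 1017 genes whose groups do not overlap, red circles the 24 genes named by rule, and dotted lines a log2 fold change of 1 in either direction.

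The libraries themselves did not sort by treatment. Pearson's r of log2(FPKM + 1), taken across genes, had a median of 0.968 over the 6 pairs within groups and 0.972 over the 9 pairs between groups. LY500307+PD-1 replicate 2 stood apart: it was the highest or lowest of the 6 libraries for 48.95% of the genes, against 26.6% to 36.2% for the other 5. It also held 108.8 FPKM summed over the epidermal markers Krt1, Krt10 and Lor, where the other 5 held between 1.97 and 6.75. Its sum over the skeletal muscle markers Acta1, Ckm and Mylpf was 85.7 FPKM, against 7.1 to 17.8. The 5 epithelial markers of 4T1 (Krt8, Krt18, Krt19, Epcam and Cdh1) were at 1 FPKM or more in each of the 6 libraries and summed to between 1343 and 3301 FPKM, highest in the same library. Markers of macrophages (341.85 to 641.0 FPKM), neutrophils (49.2 to 683.3), T cells (4.23 to 11.03), endothelium (21.7 to 32.4), fibroblasts (130.7 to 406.1) and red cells (24.6 to 136.6) were present in every one of the 6 as well, so the values below are those of a mixture. B cell markers were near absent, at 0.0537 to 0.560 FPKM, and the fat cell markers Adipoq and Plin1 summed to 0.0752 FPKM or less outside that same library. In such RNA, fewer cells of a type and less RNA per cell cannot be told apart. Results that rest on LY500307+PD-1 replicate 2 are given with and without it.

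**Figure D2:**
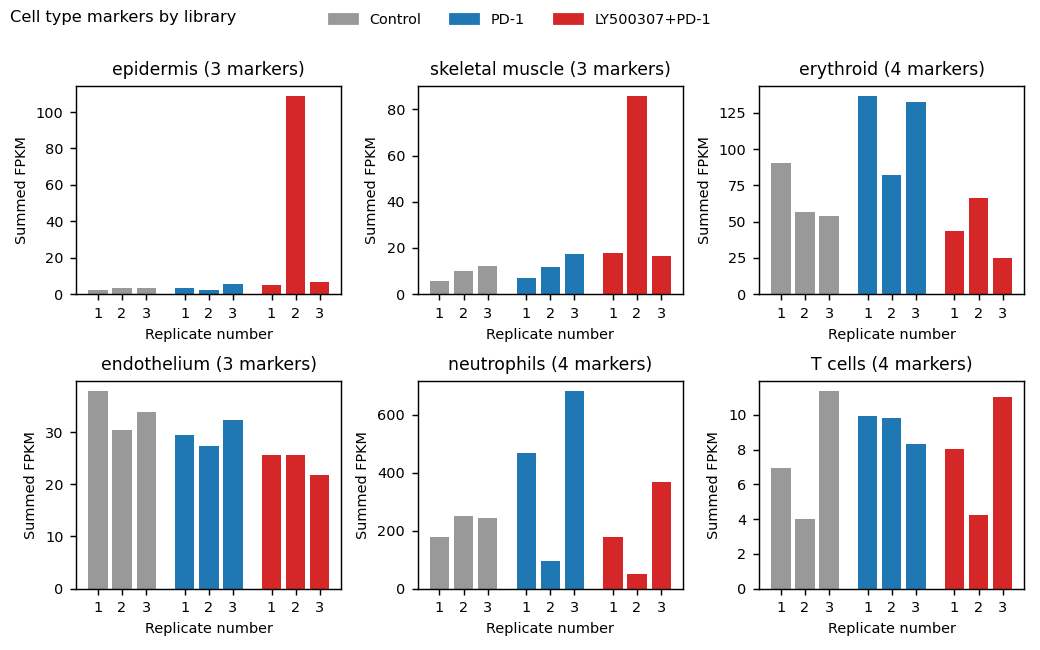
Summed FPKM of the markers of 6 cell types (vertical axes) in each library (horizontal axes, replicate number), by group. LY500307+PD-1 replicate 2 stands out for epidermis (108.8 FPKM) and skeletal muscle (85.7 FPKM), and the erythroid sums of the PD-1 libraries (81.9 to 136.6 FPKM) lie above those of the LY500307+PD-1 libraries (24.6 to 66.0 FPKM).

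The receptors and ligands that the treatments address came first. Esr2, which encodes estrogen receptor beta, the target of LY500307, was detected in 1 library, PD-1 replicate 2, at 0.0685 FPKM, and is listed at 0 for the other 5. Esr1, which encodes estrogen receptor alpha, stood at 0.652, 0.876 and 0.803 FPKM with LY500307 and at 0.969, 0.586 and 0.677 FPKM without, and Gper1, a membrane estrogen receptor, at 0.594, 0.692 and 0.371 against 0.480, 0.675 and 0.185 FPKM. These 3 genes missed the filter and were not tested. The groups overlapped for Esr1 and Gper1.

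The gene lists used here and below were chosen with earlier results of these data known, so their counts and medians are descriptions. Estrogen receptor cofactors and classic targets showed no call. Of 30 genes in this list, 16 were tested, 5 higher and 11 lower, with a median log2 fold change of -0.04. None of them had an unadjusted p under 0.05 or groups that did not overlap. Ccnd1, the cyclin D1 gene and a classic estrogen target, stood at 241 ± 25.6 FPKM with LY500307 and 222 ± 38.9 without. Bcl2, the anti-apoptotic gene with the largest difference of the list, had a log2 fold change of -0.32 (95% interval -0.76 to 0.13). Greb1, an early estrogen-induced gene in breast cancer, is listed at 0 for 5 libraries and at 0.0122 FPKM for PD-1 replicate 3.

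Checkpoint genes overlapped between the groups in all but 1 of the 20 members tested. Pdcd1, the gene of PD-1 itself (chromosome 1, 94038305 to 94052553), measured 3.05, 1.08 and 5.31 FPKM with LY500307 and 4.64, 4.12 and 4.06 FPKM in the PD-1 libraries. The LY500307+PD-1 values lay on both sides of the PD-1 values, and the log2 fold change was -0.48 (SE 0.37, 95% interval -1.36 to 0.39). It was -0.06 when LY500307+PD-1 replicate 2 was omitted and -0.86 when replicate 3 of that group was. Cd274, which encodes its ligand PD-L1 (chromosome 19, 29367455 to 29388095), measured 24.02, 10.1 and 29.7 FPKM against 14.9, 17.1 and 22.2 FPKM, a log2 fold change of 0.12 (SE 0.37). LY500307+PD-1 replicate 2 held the lowest value of both genes. Nt5e, the surface enzyme CD73 that makes adenosine, was the member without overlap, at 57.5 ± 8.70 against 69.9 ± 3.25 FPKM (log2 fold change -0.29, SE 0.13). Of the 20 checkpoint genes, 5 were higher and 15 lower, with a median of -0.09.

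Colony-stimulating factors and their receptors, the growth signals of myeloid cells, were 1 higher and 8 lower among its 9 tested genes, at a median log2 fold change of -0.08 and no unadjusted p under 0.05. They were 4 higher and 5 lower (median -0.02) when LY500307+PD-1 replicate 2 was omitted, and the median was -0.15 when replicate 3 of that group was. Csf1 (chromosome 3, 107741048 to 107760469) measured 28.8, 12.9 and 28.5 FPKM with LY500307 and 21.2, 24.6 and 30.4 FPKM without. Its log2 fold change was -0.18 (SE 0.31), with a 95% interval from -0.91 to 0.55. Replicate 2 of LY500307+PD-1 again held the lowest value, and without it the difference was 0.18. The receptor gene Csf1r stood at 29.04, 23.02 and 28.9 against 28.4, 34.2 and 22.7 FPKM, a log2 fold change of -0.06 (SE 0.17).

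Among single genes, the 12 smallest unadjusted p-values in each direction were taken from those averaging at least 1 FPKM, with a regular symbol and groups that did not overlap. Because that choice used the difference itself, the values that follow are descriptions, and none of the 24 genes passed limma's test (adjusted p between 0.734 and 0.999). On the higher side stood Ino80b, Fip1l1, Ttc33, Phf21b, Hyal1, Gpha2, Sncg, Fcrls, Gatad2b, Mbd6, Arhgap27os1 and Dbp. Ino80b encodes a subunit of the INO80 chromatin remodeller. It stood at 21.7, 22.1 and 21.3 FPKM with LY500307 and PD-1 and at 13.1, 11.1 and 10.3 FPKM in the PD-1 libraries, a log2 fold change of 0.87 (SE 0.11). The control libraries held 18.2, 14.0 and 11.9 FPKM of Ino80b and spread over the gap between the other groups. Fip1l1, a factor of mRNA cleavage and polyadenylation, stood at 7.17, 6.67 and 7.49 FPKM against 3.31, 4.00 and 3.76 FPKM (log2 fold change 0.79, SE 0.12), while control stood at 7.60, 8.45 and 6.70 FPKM. Its values with LY500307 lay within or near the control range and those of PD-1 alone below it.

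Phf21b, a PHD finger gene, stood at 1.85 ± 0.219 against 0.444 ± 0.163 FPKM, Gatad2b, a subunit of the NuRD complex, at 5.13 ± 0.846 against 1.76 ± 0.860 FPKM, and Mbd6, a methyl-CpG-binding domain gene, at 18.9 ± 1.04 against 12.6 ± 1.45 FPKM. Dbp, a transcription factor of the circadian output, stood at 9.07, 7.88 and 9.29 FPKM against 5.91, 5.63 and 5.75 FPKM (log2 fold change 0.53, SE 0.11). Hyal1, a hyaluronidase, stood at 3.51 ± 0.520 against 1.38 ± 0.301 FPKM, and 63.1% of the 50-base windows of its longest transcript are shared with the overlapping gene Naa80. Gpha2, a glycoprotein hormone subunit, stood at 13.3, 15.8 and 17.3 FPKM against 6.04, 9.28 and 5.20 FPKM, with control between 3.69 and 25.3 FPKM. Sncg, the gene of gamma-synuclein, had a log2 fold change of 0.92 (SE 0.18) and Ttc33 one of 0.77 (SE 0.12). Fcrls, an Fc receptor-like scavenger receptor of myeloid cells, stood at 3.71 ± 0.451 against 1.57 ± 0.487 FPKM. Arhgap27os1, a transcript antisense to Arhgap27 whose reads cannot be told from that gene's without strand, had a log2 fold change of 0.67 (SE 0.14).

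**Figure D3:**
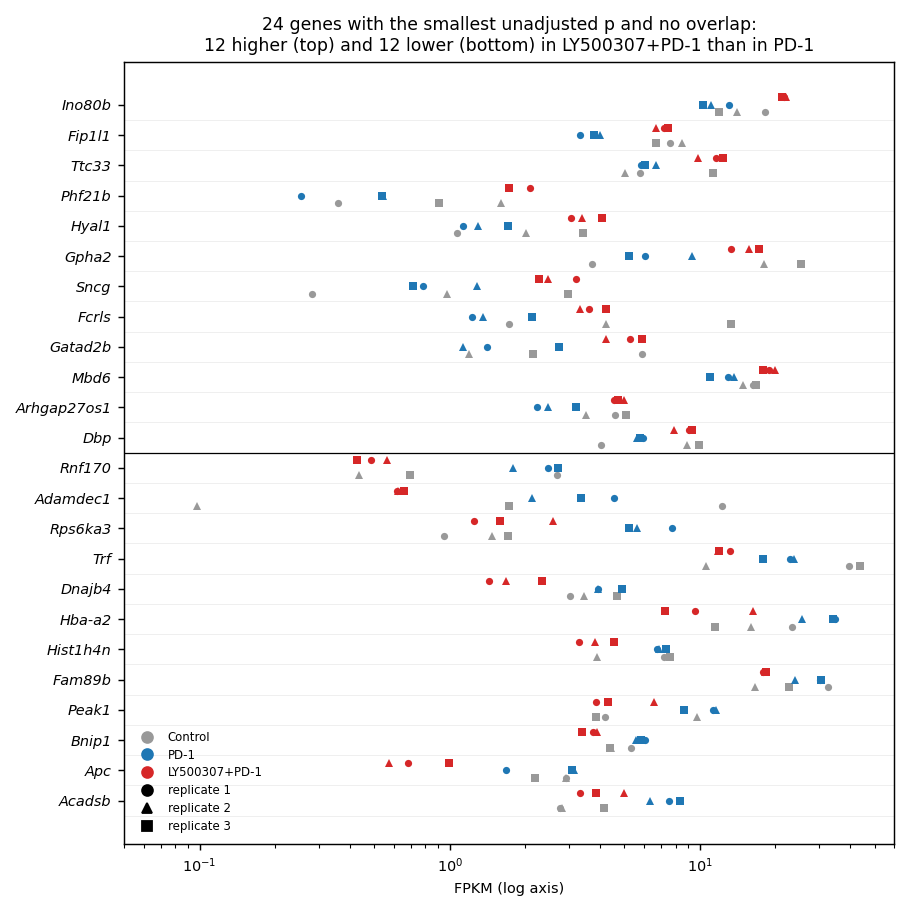
FPKM (horizontal log axis) of the 24 named genes in each library, with the group in colour and the replicate number as the shape of the point. LY500307+PD-1 points lie right of all PD-1 points in the upper 12 genes and left of them in the lower 12, as the rule required, and control points often spread across both.

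On the lower side stood Rnf170, Adamdec1, Rps6ka3, Trf, Dnajb4, Hba-a2, Hist1h4n, Fam89b, Peak1, Bnip1, Apc and Acadsb. Rps6ka3, the kinase RSK2 of the ERK pathway on chromosome X (159210307 to 159368244), measured 1.25, 2.60 and 1.59 FPKM with LY500307 and 7.76, 5.61 and 5.21 FPKM without, a log2 fold change of -1.37 (SE 0.22). Control held 0.952, 1.47 and 1.70 FPKM, so the PD-1 libraries were the high ones among the 9. Acadsb, an acyl-CoA dehydrogenase, stood at 4.05 ± 0.851 against 7.40 ± 1.01 FPKM, with control at 3.24 ± 0.769. Apc, the tumour suppressor that marks beta-catenin for destruction (chromosome 18, 34220924 to 34322552), measured 0.683, 0.573 and 0.998 FPKM against 1.68, 3.15 and 3.09 FPKM (log2 fold change -1.03, SE 0.22). Control held 2.91, 2.92 and 2.20 FPKM of Apc, and here the LY500307+PD-1 libraries were the low ones among the 9. Of 33 members of the Wnt and beta-catenin list, Apc was the 1 with an unadjusted p under 0.05 on the lower side, and 18 were higher and 15 lower (median 0.02).

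Adamdec1, a protease of tissue macrophages, stood at 0.618, 0.623 and 0.657 FPKM against 4.53, 2.13 and 3.35 FPKM (log2 fold change -1.37, SE 0.22), while control ran from 0.0976 to 12.3 FPKM. The choice by p favours genes with a narrow range within the groups compared, and control took no part in it. Rnf170, a ubiquitin ligase of the endoplasmic reticulum, stood at 0.490 ± 0.0685 against 2.32 ± 0.470 FPKM, and 18.1% of its transcript windows are shared with its pseudogene Rnf170-ps. Trf, the iron carrier transferrin, stood at 13.2, 11.8 and 11.9 FPKM against 23.04, 23.9 and 17.9 FPKM, and 79.8% of its windows are shared with the overlapping model Gm20425. Dnajb4, a heat shock co-chaperone, stood at 1.82 ± 0.462 against 4.23 ± 0.549 FPKM. Peak1, a pseudokinase of the cytoskeleton, stood at 4.90 ± 1.44 against 10.5 ± 1.64 FPKM and Bnip1, a SNARE of the endoplasmic reticulum, at 3.67 ± 0.269 against 5.80 ± 0.234 FPKM. Fam89b had a log2 fold change of -0.60 (SE 0.12) and the histone gene Hist1h4n one of -0.72 (SE 0.13). Their reads may be shared, as 99.9% of the Fam89b windows lie in the neighbour Sssca1 and 83.2% of those of Hist1h4n in Hist1h4m.

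Hemoglobin transcripts were lower with LY500307 in all 4 adult globin genes, by 1.22 to 1.48 on the log2 scale. The globin chains are made in erythroid cells, and in solid tissue their transcripts mark blood. Hba-a2 (chromosome 11, 32296489 to 32297298) measured 9.60, 16.3 and 7.28 FPKM with LY500307 and 34.7, 25.5 and 34.1 FPKM in the PD-1 libraries, a log2 fold change of -1.48 (SE 0.27). Hba-a1 stood at 15.0, 19.7 and 8.42 FPKM against 44.5, 25.5 and 39.7 FPKM. Hbb-bs stood at 14.1, 22.8 and 6.16 FPKM against 42.4, 24.2 and 41.2 FPKM. The groups did not overlap for these 3 genes, although LY500307+PD-1 replicate 2 came close to PD-1 replicate 2. Hbb-bt stood at 4.67, 7.27 and 2.78 FPKM against 15.0, 6.63 and 17.5 FPKM and overlapped by that pair. Control held 23.4, 16.0 and 11.5 FPKM of Hba-a2, all below the PD-1 values, and the lower 2 of them lay within the LY500307+PD-1 range. Each of the 4 had an unadjusted p under 0.05, between 0.000979 and 0.018, against 1.81% of all genes on the lower side, and none passed limma's adjusted test (adjusted p 0.854 for Hba-a2 and 0.999 for the others). The 4 values are not independent: 86.9% of the 50-base windows of the Hba-a2 transcript also lie in Hba-a1, and 65.8% of those of Hbb-bs in Hbb-bt. Leaving out PD-1 replicate 1 or PD-1 replicate 3 reduced the count of 4 to 2, with medians of -1.08 and -0.98. The heme enzyme gene Alas2 missed the filter and ran from 0.195 to 0.455 FPKM. Of the 7 list members tested, 5 were lower, with a median of -1.22. With no filter on low values the median of the list was -0.004, since most members that missed the filter are at or near 0 in both groups. Tfrc, the transferrin receptor, and Bpgm were higher at 0.21 and 0.20.

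The globin promoters are shown because these genes differed together and because their sequences show how alike the copies are. Each run spans 250 bases before to 50 after the start of the gene, from RefSeq on GRCm38.p6, and capitals mark the CACCC box, the CCAAT box and the TATAA box on the strand shown, elements known from globin promoters. The promoter window of the alpha globin gene shown lies at chr11:32296242-32296541 (plus strand). Those of the beta globin genes Hbb-bs and Hbb-bt lie at chr7:103827879-103828178 and chr7:103813874-103814173 (minus strand).
Hba-a2: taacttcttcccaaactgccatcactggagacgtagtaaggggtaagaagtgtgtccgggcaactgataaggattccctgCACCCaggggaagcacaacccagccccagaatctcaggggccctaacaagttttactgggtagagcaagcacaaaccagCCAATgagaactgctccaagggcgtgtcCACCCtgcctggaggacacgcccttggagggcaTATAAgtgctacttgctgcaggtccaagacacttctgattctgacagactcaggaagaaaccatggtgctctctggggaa
Hbb-bs: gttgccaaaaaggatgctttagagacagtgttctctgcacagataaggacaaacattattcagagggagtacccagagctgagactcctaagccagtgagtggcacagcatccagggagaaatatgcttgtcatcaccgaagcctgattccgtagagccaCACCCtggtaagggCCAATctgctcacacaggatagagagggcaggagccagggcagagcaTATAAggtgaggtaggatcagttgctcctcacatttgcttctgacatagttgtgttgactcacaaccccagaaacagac
Hbb-bt: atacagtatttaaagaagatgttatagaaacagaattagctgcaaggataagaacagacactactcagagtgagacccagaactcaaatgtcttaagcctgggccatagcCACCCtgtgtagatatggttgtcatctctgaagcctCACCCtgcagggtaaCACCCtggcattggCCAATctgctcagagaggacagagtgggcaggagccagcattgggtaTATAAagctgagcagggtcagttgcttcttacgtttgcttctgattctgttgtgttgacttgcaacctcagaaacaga

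All 3 runs hold the 3 elements, which 1.06% of the 32851 promoters in the table do on the strand shown. The single elements are common: on either strand CACCC stood in 57.5% of promoters, CCAAT in 37.4% and TATAA in 24.9%. The windows of Hba-a1 and Hba-a2 share an identical run of 297 bases, whereas the longest run shared by Hbb-bs and Hbb-bt is 14 bases. The elements marked were chosen after the globin values were seen.

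Endothelial markers were lower with LY500307 in 20 of the 22 tested, the median log2 fold change being -0.36 against 0.00 over all genes. Of the 22, 8 had an unadjusted p under 0.05 on the lower side (1.81% of all genes) and 0 on the higher side (1.47%), and 5 had groups that did not overlap, all on the lower side (4.02% of all genes). None passed limma's adjusted test. The genes span junctions, receptors and transcription factors of the vessel wall. Pecam1, the adhesion molecule CD31, stood at 7.43, 8.53 and 7.54 FPKM with LY500307 and PD-1 and at 10.6, 9.01 and 13.7 FPKM in the PD-1 libraries (log2 fold change -0.44, SE 0.16). Sox18, a transcription factor of vessel development, stood at 7.49, 11.3 and 6.61 FPKM against 15.1, 10.9 and 17.4 FPKM (-0.72, SE 0.23). Cldn5, the endothelial tight junction protein, stood at 9.80, 11.6 and 6.53 FPKM against 21.9, 10.5 and 20.6 FPKM (-0.82, SE 0.31). In Sox18 and Cldn5 the groups overlapped, through LY500307+PD-1 replicate 2 and PD-1 replicate 2.

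The remaining endothelial members past the unadjusted threshold were Tie1, Esam, Egfl7, Ramp2 and Esm1. Ramp2, the partner of the adrenomedullin receptor, stood at 1.54, 1.88 and 1.68 FPKM against 4.04, 2.35 and 3.09 FPKM (-0.60, SE 0.18), and 73.8% of its windows are shared with the neighbour Vps25. Esm1, a gene of sprouting tip cells, stood at 2.31, 0.918 and 5.64 FPKM against 7.69, 4.00 and 15.8 FPKM (-1.37, SE 0.56). Other defining genes differed less: Cdh5, the endothelial cadherin, stood at 14.9 ± 2.31 against 16.5 ± 0.566 FPKM, Kdr, the main VEGF receptor, at 1.54 ± 0.236 against 2.06 ± 0.421 FPKM and Flt1 at 3.70 ± 0.306 against 3.79 ± 0.403 FPKM. The median of the list stayed below 0 on omission of each library in turn, between -0.48 and -0.23, and was -0.46 without LY500307+PD-1 replicate 2. The number at an unadjusted p under 0.05 on the lower side was less stable. It was 1 without LY500307+PD-1 replicate 1, PD-1 replicate 1 or PD-1 replicate 3. It was 2 when LY500307+PD-1 replicate 3 was omitted and 10 when replicate 2 of that group was. Without PD-1 replicate 3, 1 member was also under that level on the higher side. The hemoglobin sums above moved with these genes, and their part in the result was not tested.

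Signals that act on vessels leaned the same way. Of 18 VEGF, angiopoietin and adrenomedullin genes tested, some of them shared with the endothelial list, 13 were lower (median -0.28), 5 of them at an unadjusted p under 0.05 (1.81% of all genes on that side) and 4 without overlap (4.02%). Ramp1, a partner of the calcitonin gene-related peptide receptor, stood at 2.56, 2.24 and 2.81 FPKM against 4.34, 3.82 and 3.58 FPKM (-0.47, SE 0.13). Pgf, placental growth factor, stood at 6.24 ± 1.86 against 9.18 ± 1.66 FPKM, and Notch4, a Notch receptor of endothelium, at 1.41 ± 0.217 against 2.06 ± 0.202 FPKM. Vegfa stood at 14.9, 17.3 and 24.5 FPKM against 28.5, 17.6 and 29.0 FPKM, a log2 fold change of -0.38 (95% interval -0.96 to 0.20). Its value in LY500307+PD-1 replicate 3 lay above PD-1 replicate 2, so the groups overlapped. Without LY500307+PD-1 replicate 1, PD-1 replicate 1 or PD-1 replicate 3, 2 members of the list were at an unadjusted p under 0.05 on the lower side, without PD-1 replicate 2 there were 3, and without PD-1 replicate 3 the median was -0.14. Coagulation genes showed no common direction (7 higher and 10 lower of 17), with F10, coagulation factor X, at 1.46, 1.86 and 1.78 FPKM against 2.92, 3.10 and 2.89 FPKM (-0.56, SE 0.13).

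**Figure D4:**
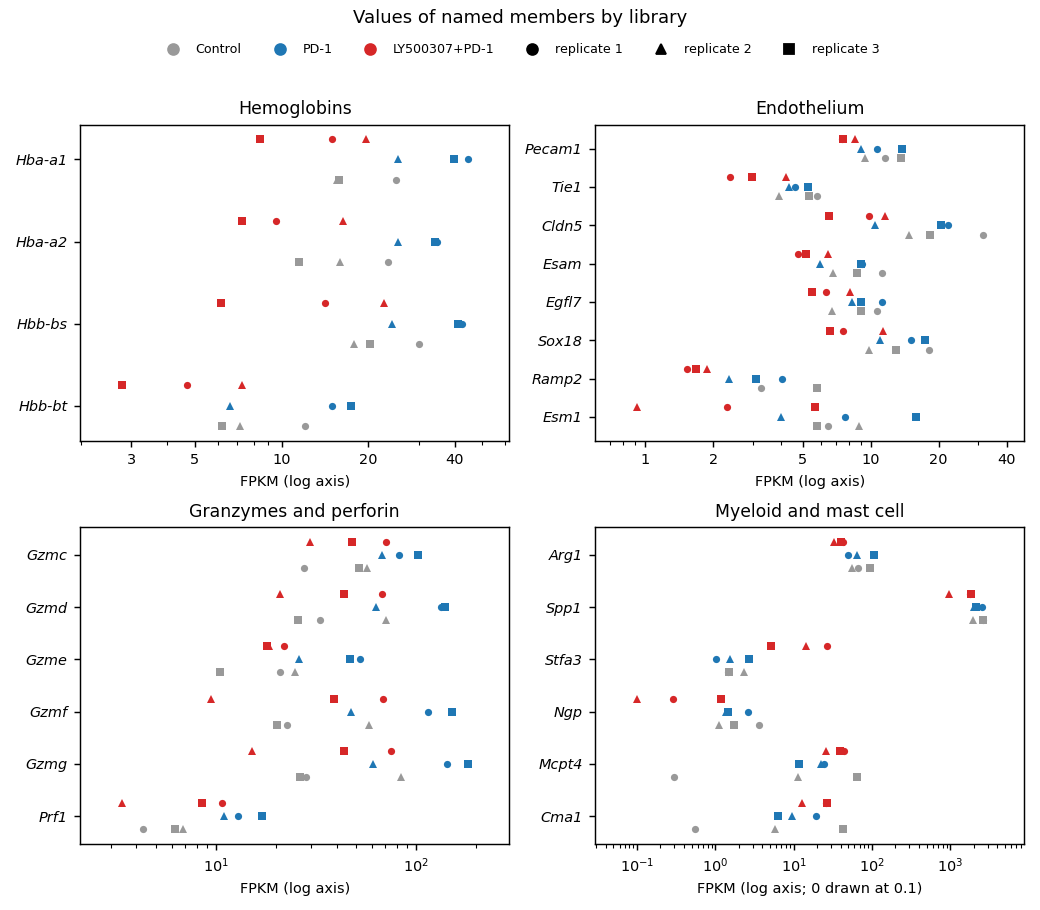
FPKM (horizontal log axes) of hemoglobin, endothelial, cytotoxic, and myeloid and mast cell genes in each library, with the group in colour and the replicate number as the shape of the point. LY500307+PD-1 points lie below those of PD-1 for Hba-a2, Arg1 and Gzme without overlap, whereas for Cldn5 and Gzmd the groups overlap.

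Cytotoxic genes were lower in 16 of the 19 tested, the median log2 fold change being -0.31, with 5 at an unadjusted p under 0.05 on the lower side (1.81% of all genes) and 2 without overlap (4.02%). Granzymes are the proteases that T and NK cells deliver into target cells, and perforin opens the way. Gzme stood at 21.8, 18.5 and 17.9 FPKM with LY500307 and at 52.2, 26.1 and 46.4 FPKM without (log2 fold change -1.01, SE 0.25). Gzmd stood at 67.6, 20.8 and 43.6 FPKM against 132.4, 62.9 and 139.3 FPKM (-1.39, SE 0.47). Prf1, the perforin gene, stood at 10.7, 3.38 and 8.53 FPKM against 12.96, 11.002 and 17.1 FPKM (-0.88, SE 0.36). LY500307+PD-1 replicate 2 held the lowest value of Gzmd and Prf1, and the groups overlapped for Gzmd but not for Gzme or Prf1. Gzmc and Gzmg also stood at an unadjusted p under 0.05, with log2 fold changes of -0.81 (SE 0.31) and -1.63 (SE 0.62).

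The cytotoxic result rested in part on that library, since without it the median was -0.06, 12 of 19 members were lower and 2 were at an unadjusted p under 0.05. Without PD-1 replicate 1 or PD-1 replicate 3 there was 1 such member, and the medians were -0.39 and -0.17. Without LY500307+PD-1 replicate 3 there were 2. Up to 21.9% of the windows of Gzmd, Gzme and Gzmg are shared within the family, so reads may have been split among them. Other effector genes differed less: Gzmb stood at 26.8 ± 9.43 against 33.6 ± 8.13 FPKM, Nkg7, a granule protein, at 11.7 ± 3.64 against 12.3 ± 0.799 FPKM, and Ifng, the interferon-gamma gene, at 1.07 ± 0.585 against 0.920 ± 0.320 FPKM.

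T cell receptor and coreceptor genes did not share that direction with all 6 libraries. Of 19 tested, 11 were higher and 8 lower (median 0.02), and none was at an unadjusted p under 0.05. The balance turned with single libraries. Without LY500307+PD-1 replicate 3, 14 were lower (median -0.135), 4 of them at that level (288 of all 13521 genes on that side). Without PD-1 replicate 3, 14 were lower (median -0.06), and without LY500307+PD-1 replicate 2, 13 were higher (median 0.09). Cd8a stood at 2.69, 1.57 and 4.39 FPKM against 3.79, 3.10 and 3.94 FPKM, a log2 fold change of -0.31 (95% interval -0.94 to 0.32). Regulatory T cell genes were 6 higher and 5 lower (median 0.02). Foxp3, their defining transcription factor, stood at 2.18, 2.67 and 1.45 FPKM against 1.90, 1.96 and 1.73 FPKM (log2 fold change 0.10, SE 0.18), and the groups overlapped.

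In the myeloid lists, single genes stood out more than the lists did. Arg1, the arginase that depletes the arginine T cells need and a marker of suppressive myeloid cells (chromosome 10, 24915221 to 24927484), measured 42.2, 33.3 and 40.1 FPKM with LY500307 and 49.6, 64.6 and 105.7 FPKM in the PD-1 libraries. The groups did not overlap, and the log2 fold change was -0.85 (SE 0.26, 95% interval -1.47 to -0.22, unadjusted p 0.015 and limma's adjusted p 0.999). Control held 67.0, 55.4 and 96.0 FPKM, so the LY500307+PD-1 values were the lowest of the 9. Spp1, the secreted protein osteopontin, stood at 1784, 973 and 1862 FPKM against 2584, 2025 and 2146 FPKM (-0.60, SE 0.26), also without overlap. Nos2, the other arginine-consuming enzyme of these cells, stood at 41.0 ± 9.47 against 34.1 ± 10.4 FPKM (0.27, SE 0.25). The 18 suppressive myeloid genes tested were 6 higher and 12 lower, with a median of -0.15, which was 0.01 without LY500307+PD-1 replicate 2.

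Neutrophil markers were lower in 17 of 22 tested (median -0.43), but their spread between libraries of 1 group was wide. S100a8, a calcium-binding protein of neutrophils, stood at 44.2, 15.9 and 93.8 FPKM against 140, 25.8 and 198 FPKM, a log2 fold change of -1.13 (95% interval -3.19 to 0.94). Replicate 2 was low in both groups. Ly6g, the defining marker, missed the filter and was listed at 0 in the 3 LY500307+PD-1 libraries and at 0.129, 0.490 and 0.263 FPKM in the PD-1 libraries. Stfa3, a stefin that inhibits cysteine proteases, went the other way, at 26.6, 14.5 and 5.18 FPKM against 1.02, 1.54 and 2.70 FPKM (log2 fold change 2.37, SE 0.52), and Ngp, a granule protein of young neutrophils, stood at 0.285, 0 and 1.20 FPKM against 2.63, 1.37 and 1.47 FPKM. With all 6 libraries 1 neutrophil marker was at an unadjusted p under 0.05 on each side (1.47% of all genes higher and 1.81% lower). On the lower side the number was 8 without PD-1 replicate 2 (350 of all 13521 genes). It was 3 when LY500307+PD-1 replicate 3 was omitted (288 of all genes). It was 0 on leaving out replicate 1 or replicate 2 of LY500307+PD-1, or PD-1 replicate 1. On the higher side it was 2 without LY500307+PD-1 replicate 2 or replicate 3, and 1 without any other library. The median was -0.71 without PD-1 replicate 2, became -0.20 when LY500307+PD-1 replicate 2 was omitted and was -0.15 without PD-1 replicate 3.

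Macrophage markers split into 8 higher and 14 lower (median -0.05, and 0.16 without LY500307+PD-1 replicate 2). Mrc1, the mannose receptor of tissue macrophages, stood at 12.5, 14.3 and 9.21 FPKM against 6.60, 9.81 and 8.18 FPKM (0.49, SE 0.20), and Ms4a7 at 9.18 ± 2.12 against 6.07 ± 1.01 FPKM (0.51, SE 0.19). Mast cell and eosinophil genes were higher in 11 of 12 tested, with a median of 0.36. Mcpt4, a mast cell chymase, stood at 43.9, 25.7 and 39.5 FPKM against 24.4, 22.5 and 11.8 FPKM (0.89, SE 0.31) and did not overlap. The 1 lower member (log2 fold change -0.38) did not overlap either. Without LY500307+PD-1 replicate 2, which held the lowest Mcpt4 value of its group, the median was 0.81. In that fit 6 members were at an unadjusted p under 0.05 on the higher side, as were 264 of all 13521 genes. With all 6 libraries 1 member was (1.47% of all genes). Leaving out PD-1 replicate 3, LY500307+PD-1 replicate 1 or LY500307+PD-1 replicate 3 gave medians of 0.18, 0.19 and 0.20 and 0 such members, and leaving out PD-1 replicate 1 gave 2. Control libraries ran from 0.302 to 64.1 FPKM of Mcpt4, a range that spans both treated groups.

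Interferon and antigen presentation lists had medians near 0 with all 6 libraries, and some of these changed sign with 1 library left out. Interferon-stimulated genes were 28 higher and 11 lower of 39 tested, with a median of 0.08 that ran from 0.01 to 0.14 when 1 library was left out. Isg15, a ubiquitin-like interferon product, stood at 127, 132 and 111 FPKM against 112, 119 and 111 FPKM (log2 fold change 0.11, 95% interval -0.13 to 0.35), and Ifit3 at 46.5 ± 5.21 against 41.2 ± 2.55 FPKM. Oasl1 was the 1 member at an unadjusted p under 0.05, at 8.43 ± 2.26 against 5.34 ± 0.238 FPKM. The interferon-gamma and guanylate-binding list was 15 higher and 11 lower (median 0.01). Its median was 0.14 without LY500307+PD-1 replicate 2 (18 higher and 8 lower) and -0.07 without LY500307+PD-1 replicate 3 (11 higher and 15 lower). The GTPases Tgtp1 and Tgtp2 were lower without overlap, at -0.33 (SE 0.10) and -0.28 (SE 0.09). Of the Tgtp1 windows 89.4% are shared with Tgtp2, so these cannot be counted as separate results. MHC class I and peptide loading genes were 15 higher and 10 lower (median 0.05), with H2-T22, a nonclassical class I gene, at 87.1 ± 3.67 against 72.0 ± 8.44 FPKM. MHC class II genes were 6 higher and 8 lower of 14 (median -0.02), a balance that turned with single libraries. On omission of LY500307+PD-1 replicate 2, 13 were higher (median 0.13), as were 13 without PD-1 replicate 2 (0.11). Without PD-1 replicate 3, 12 were lower (median -0.215), as were 12 without LY500307+PD-1 replicate 3 (-0.14), and 11 were lower without LY500307+PD-1 replicate 1 (-0.07).

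Chemokines and their receptors were 12 higher and 24 lower of 36 tested, with a median of -0.15 (-0.21 to -0.08 when 1 library was left out). Ccr1, a receptor of inflammatory monocytes and neutrophils, stood at 13.4, 7.93 and 12.4 FPKM against 18.2, 15.5 and 15.6 FPKM (-0.53, SE 0.19). Cxcl13, which draws B cells, went the other way, at 4.21, 5.09 and 10.004 FPKM against 0.264, 3.23 and 2.20 FPKM (1.45, SE 0.48). Both were free of overlap. In the interleukin-1 family (9 higher and 8 lower of 17), the alarmin Il33 stood at 3.35, 2.92 and 2.94 FPKM against 0.587, 1.08 and 2.45 FPKM (0.85, SE 0.28).

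Cell cycle genes were higher in 36 of 37 tested with all 6 libraries, with a median of 0.38. On the higher side 1 member, E2f2, was at an unadjusted p under 0.05 (1.47% of all genes). Mki67, the proliferation marker Ki-67, stood at 17.1, 27.4 and 13.1 FPKM against 12.3, 19.6 and 8.11 FPKM (0.51, SE 0.35). Replicate 2 was the highest of each group. Without LY500307+PD-1 replicate 2 the median was 0.13 and 30 of 37 were higher. Without PD-1 replicate 2 the median was 0.60 and 37 of 37 were higher. Of these, 11 were at an unadjusted p under 0.05, against 340 of all 13521 genes on the higher side. Without LY500307+PD-1 replicate 3 the median was 0.60 and 5 were under that threshold (262 of all genes). The count was 0 without LY500307+PD-1 replicate 1, LY500307+PD-1 replicate 2, PD-1 replicate 1 or PD-1 replicate 3, the last with a median of 0.24. With the replicate number as a block the count was 23 (356 of all genes). Since each of these genes moves with the library, 37 members are not 37 observations.

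Epithelial and skin genes also followed that library. Krt5, a keratin of basal epithelium, stood at 11.5, 64.4 and 1.38 FPKM against 0.580, 0.577 and 0.134 FPKM (log2 fold change 3.14, SE 1.06), without overlap but with LY500307+PD-1 replicate 2 far above the others of its group. The epidermal gene Lor stood at 0.879, 49.1 and 1.43 FPKM against 0.190, 0.130 and 1.21 FPKM. The 4 epidermis genes tested were higher with a median of 1.42, which was 0.42 without LY500307+PD-1 replicate 2, and the 11 skeletal muscle genes had medians of 0.55 and 0.16. Cdh1, the epithelial cadherin, differed more evenly, at 87.0, 94.9 and 81.3 FPKM against 65.5, 70.7 and 70.1 FPKM (0.35, SE 0.10), and Ovol2, which keeps cells epithelial, at 1.91 ± 0.293 against 1.12 ± 0.193 FPKM (0.46, SE 0.16). Krt8, Krt18, Krt19 and Epcam overlapped between the groups, each highest in LY500307+PD-1 replicate 2. Krt19 stood at 30.6, 79.4 and 33.6 FPKM against 47.4, 45.3 and 42.7 FPKM. Keratins and junction genes as a list were 18 higher and 8 lower (median 0.12), with 3 and 0 at an unadjusted p under 0.05. Without LY500307+PD-1 replicate 2 they were 12 higher and 14 lower (median -0.05), with 2 and 3 under that level.

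**Figure D5:**
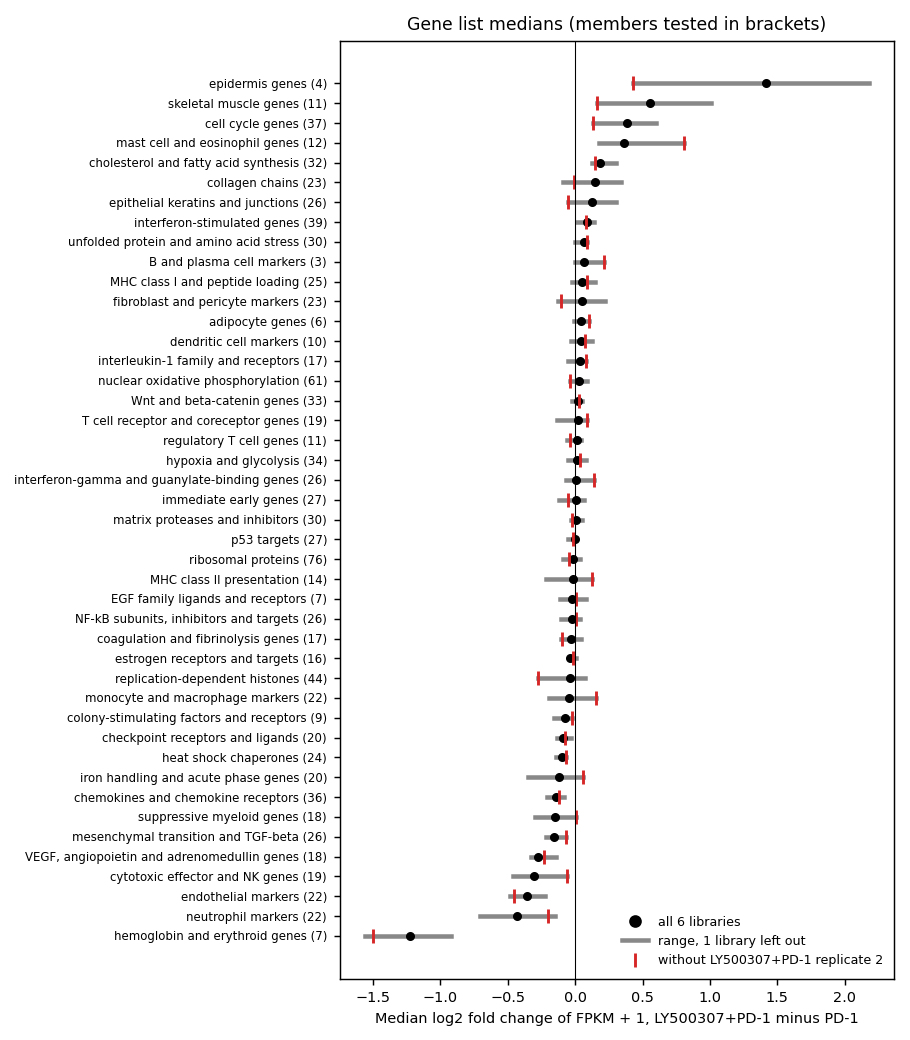
Median log2 fold change of FPKM + 1 (LY500307+PD-1 minus PD-1, horizontal axis) of each gene list, with the range when 1 library is left out (grey) and the value without LY500307+PD-1 replicate 2 (red). The hemoglobin (-1.22) and endothelial (-0.36) medians stay below 0 throughout, and the epidermis median falls from 1.42 to 0.42 without that library.

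Across the lists, 978 genes were tested, of which 59 (6.03%) had an unadjusted p under 0.05, against 3.28% of all genes, and 77 (7.87%) had groups that did not overlap, against 7.52%. The lists were chosen with earlier results of these data known, so a share above that of all genes can follow from the choice. Members of a list vary together and are not separate observations. Of 44 lists with tested members, the median of 27 took both signs when single libraries were left out, and the median of 17 kept its sign.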

How the data were processed

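RNA of 9 libraries in 3 groups of 3 was measured by RNA sequencing, and 6 libraries were compared. The deposited table holds 1 value per gene and library, taken as FPKM calculated by the authors because the values behave as such; read counts were not used here, so depth is unknown and no counting interval is given. The summed FPKM of the 6 libraries ran from 348764 to 370214. Bowtie2, DESeq2, CASAVA 1.8 and the mm9 build are named, without roles, per the submitters' processing notes. The library kit marks strand, per the labels' protocols, but whether counting used it is not given in the sources used here, so overlapping genes on opposite strands cannot be told apart.

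Genes that reached 1 FPKM in 3 or more of the 6 libraries were tested on log2(FPKM + 1) with limma 3.58.1 in R 4.3.3 (trend and robust options), with Benjamini-Hochberg adjustment over all 13521 genes and a threshold of 0.05. The method was tested on simulated data. Named genes were the 12 smallest p-values in each direction among genes averaging 1 FPKM or more, with a regular symbol and groups that did not overlap. The 6 libraries were taken by their labels. The 45 gene lists and their genes were chosen with earlier results of these data known. Of 1302 different genes in the lists, some of them in more than 1 list, 978 were tested, 314 missed the filter and 10 were not found. Promoters came from RefSeq on GRCm38.p6. Alternatives were other filters, scalings, a pseudocount of 0.1, a replicate block, all 9 libraries, and leaving out each library.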

Additional observations from a re-analysis of the deposited data

How the results depend on the processing

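No gene was called by limma under any of the 14 alternatives, and the smallest adjusted p ran from 0.0698 (Ube2g2, without LY500307+PD-1 replicate 2) to 1. At an unadjusted p under 0.05, testing without a filter gave 369 higher and 420 lower genes and 1827 without overlap, more genes being tested by construction. Leaving out 1 library gave 144 to 340 higher (340 without PD-1 replicate 2) and 149 to 350 lower genes (149 without PD-1 replicate 1), and 1874 to 2966 without overlap, with fewer samples by construction. With the replicate number as a block, 356 genes were higher and 303 lower, against 199 and 245 without it. Same-numbered libraries correlated at 0.009, 0.103 and 0.118 in their deviations, not all over 0.1, so the numbers were not taken as pairs, although each library correlated best with its own number. All 331 values of the 24 named genes under the alternatives kept their sign. Of 87 other genes, 8 reversed, with ranges on leaving out a library of -0.366 to 0.182 (Csf1), -0.209 to 0.077 (Csf1r), -0.037 to 0.255 (Foxp3), -0.177 to 0.559 (Cd274), -0.38 to 0.004 (Csf2ra), -0.523 to 0.216 (Ighm), -0.359 to 0.129 (H2-Ea-ps) and -0.221 to 0.124 (Ctss); the cause was not tested. Of 616 list medians under alternatives 19 moved, 17 of them on leaving out a library.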

Other observations

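Several gene groups of metabolism and stress lay near 0 or leaned one way by small amounts. Cholesterol and fatty acid synthesis genes were 25 higher and 7 lower of the 32 tested, the median log2 fold change being 0.18 (0.12 to 0.30 when 1 library was left out), and Hmgcs1, an early enzyme of cholesterol synthesis, stood at 19.4, 27.4 and 17.4 FPKM against 12.6, 17.9 and 14.3 FPKM. Heat shock chaperones were 4 higher and 20 lower of 24 (median -0.10, -0.15 to -0.07 when 1 library was left out). Hsp90aa1, the inducible HSP90 gene, stood at 116, 128 and 120 FPKM against 191, 180 and 125 FPKM, and the groups overlapped. Ribosomal protein genes were 32 higher and 44 lower of 76 (median -0.01), and nuclear oxidative phosphorylation genes 36 higher and 25 lower of 61 (median 0.03). The 15 mitochondrially encoded genes are listed at 0.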
